A study of Mus musculus with 8 samples.

Results

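The genes described here encode the proteins of the mitochondrial ribosome, and were measured in the RNA of CD11b+ cells (microglia and other myeloid cells) isolated from control and CSF1 OE brains. They were taken as every gene symbol that starts with Mrpl (large subunit) or Mrps (small subunit) and a digit, which gave 76 of the 20308 symbols in the count files, 47 of the large and 29 of the small subunit. All 76 passed the filter on low counts, so no member was lost, among 13407 genes tested. All mice were F1 animals of C57Bl/6 and CD1 parents aged p14 or p15, and whether the control mice carried one of the transgenes is not given in the sources used here. The CSF1 OE mice also carried TRE and tTA transgenes that drive secreted CSF1 from a subset of GFAP+ cells. CSF1 and IL-34 are the ligands of CSF1R, a receptor important for the survival and division of microglia. The transgene was thus directed to cells other than CD11b+ cells, and its secreted product can act on CD11b+ cells. RNA of 8 astrocyte markers was also in these libraries (sums of 378 to 697 CPM in controls and 319 to 725 CPM in CSF1 OE mice). Whether transgene RNA was among the counts was not examined. Cells were bound to CD11b beads after myelin removal from the right hemisphere, and each of the 4 control mice (animal numbers 1827, 1872, 1874 and 1934) and the 4 CSF1 OE mice (1931, 1932, 1936 and 2019) gave 1 library of between 12053280 and 15475488 counts. Csf1 itself was at 282 ± 98.7 CPM (counts scaled to a common effective library size; SD, n = 4) in controls and 322 ± 107 CPM in CSF1 OE cells, with overlapping values.

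The mitochondrial ribosome translates the few proteins that mitochondrial DNA encodes, all of them subunits of the respiratory chain. Its RNAs come from mitochondrial DNA, but its proteins are encoded in the nucleus, made by cytoplasmic ribosomes and imported. The small subunit reads the messenger RNA and the large subunit joins the amino acids. Many of the proteins descend from bacterial ribosomal proteins and keep the bacterial number, while others exist only in mitochondria. By protein structure the names are not exact. Mrps18a and Mrps30 proteins sit in the large subunit, and Mrps36 protein belongs to the oxoglutarate dehydrogenase complex. A few other ribosomal proteins carry a different kind of symbol (Dap3, Chchd1) and are given below as a list of their own.

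No member was called as changed by the rule used here, and the RNAs of both subunits lay slightly higher in CSF1 OE cells. The study's own table of differentially expressed genes, made with EBSeq, holds Mrpl52. A gene was called where edgeR's quasi-likelihood test gave a Benjamini-Hochberg adjusted p under 0.05 over all genes and the fold was under 0.7 or over 1.43. By this rule 0 of 76 members were called, beside 59 of 13407 genes (0.44%). The lowest adjusted p of a member was 0.0688 (Mrpl23), and 2 members, Mrpl33 and Mrpl52, lay over the fold limit. At an unadjusted p under 0.05, 10 members were higher, beside 10.1% of all genes, and 0 were lower, beside 6.44% of all genes. The share of members under that p (10 of 76) was thus near the background. DESeq2 called 416 of all genes (3.1%) and 2 members, Mrpl33 (adjusted p = 0.00360) and Mrpl52 (adjusted p = 0.0179), both higher. At an unadjusted p under 0.05 DESeq2 had 12 members higher (11.1% of all genes) and 0 lower (7.47% of all genes). limma on the authors' normalized values called 105 genes (0.783%) and 0 members, with 10 members higher at an unadjusted p under 0.05 (10.4% of all genes) and 0 lower (6.77% of all genes). In edgeR the count of members higher at that p was 18 without control 1827 (11.7% of all genes) and 6 without control 1872 (7.25% of all genes).

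The sign of the differences was less even than over all genes. At any p, 57 of 76 members were higher in CSF1 OE cells, beside 44.8% of all genes. The count was 36 of 47 for the large and 21 of 29 for the small subunit. The median log2 fold change was 0.15 in each subunit and -0.034 over all genes. Single members ran from -0.25 (Mrps6) to 0.68 (Mrpl52), with a standard error of 0.13 at the median and between 0.079 and 0.25 over the members. In 12 members every CSF1 OE mouse lay above every control mouse, beside 6.84% of all genes, 6 of them of each subunit. In 2 members every CSF1 OE mouse lay below every control mouse, beside 3.45% of all genes, and both were of the small subunit (Mrps6 and Mrps31).

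**Figure D1:**
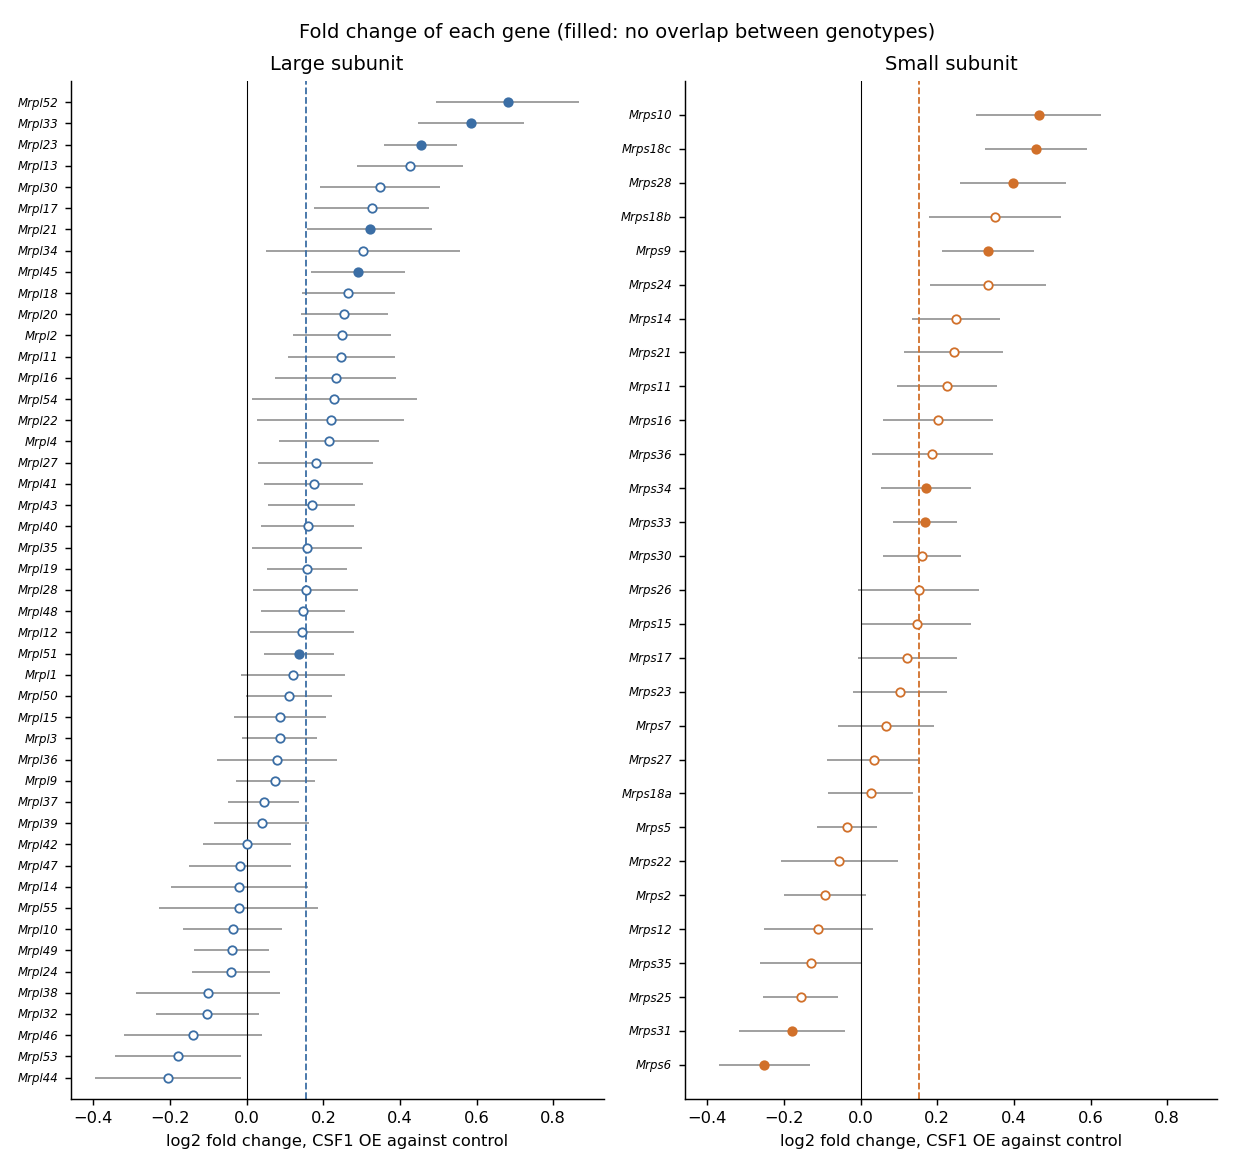
Fitted log2 fold change of each of the 76 genes, CSF1 OE against control, with bars of 1 standard error, for the large (left) and the small subunit (right), each sorted by value. Filled points are genes whose 4 CSF1 OE values all lie above or all below the 4 control values, the dashed lines are the medians of 0.15, and most points lie to the right of 0.

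Summed over the members, the RNA level was slightly higher in CSF1 OE cells, and the ranges of the genotypes overlapped through 1 control mouse. The 76 RNAs together made up 1159 ± 67.6 CPM in controls and 1268 ± 29.6 CPM in CSF1 OE cells (SD, n = 4), a ratio of 1.09. Control 1827 stood at 1259 CPM and the other 3 control mice at 1117 to 1135 CPM, whereas the CSF1 OE mice stood at 1224 to 1289 CPM. Thus 3 of the 4 CSF1 OE mice were above every control mouse, and the remaining one, 2019, was above 3 of them. As a share of all counts, without TMM scaling, the members made up 0.118% ± 0.0064 of a control and 0.124% ± 0.0072 of a CSF1 OE library (SD, n = 4), a ratio of 1.05. On that scale 2 of the 4 CSF1 OE mice were above every control mouse, and the highest control mouse was 1934 at 0.125% instead of 1827 at 0.121%.

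The large subunit sum was 749 ± 46.6 CPM in controls and 827 ± 19.5 CPM in CSF1 OE cells, a ratio of 1.10. The small subunit sum was 410 ± 21.1 CPM and 441 ± 11.3 CPM, a ratio of 1.07. Both sums overlapped between genotypes through control 1827. The large over the small subunit sum was 1.805 to 1.852 in control and 1.855 to 1.918 in CSF1 OE mice. The ranges thus did not overlap, but control 1827 (1.852) and CSF1 OE mouse 1931 (1.855) nearly touched. The difference between the means (1.83 and 1.88) was only 0.04 on the log2 scale. This ratio is a description of members chosen with earlier results in view and was not tested. In these bulk libraries, more RNA per cell and more cells with a high level cannot be told apart.

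**Figure D2:**
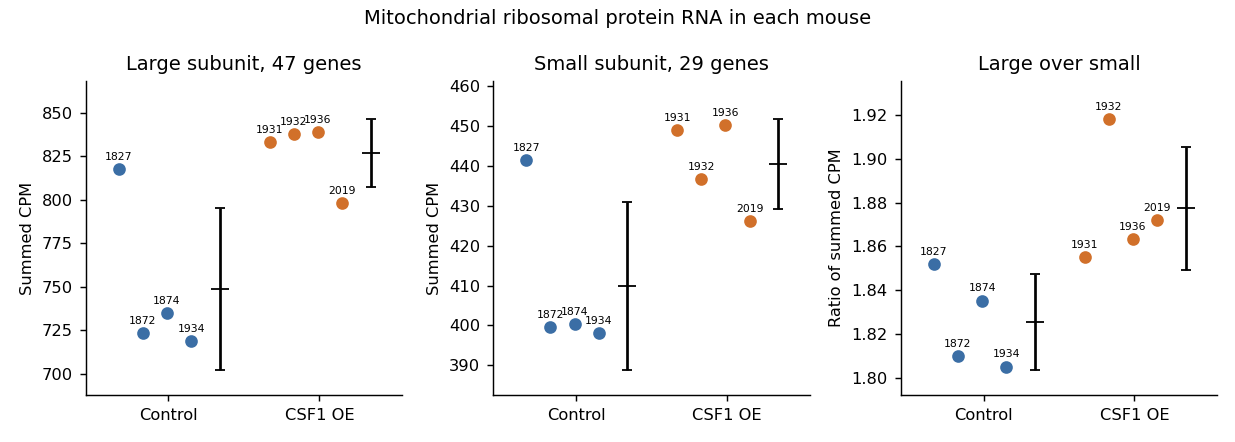
Summed CPM of the 47 large subunit genes (left) and the 29 small subunit genes (middle), and the ratio of these sums (right), 1 point per mouse with its animal number and the mean with 1 SD beside each group. The axes do not start at 0, and control 1827 lies among the CSF1 OE mice in both sums. The ratios run from 1.805 to 1.852 in control and from 1.855 to 1.918 in CSF1 OE mice.

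Among the large subunit genes, the lowest p belonged to Mrpl23 (chromosome 7, 142532686 to 142540747, GRCm38), whose protein lies at the tunnel through which the new chain leaves. Mrpl23 was at 13.2, 14.4, 14.7 and 13.4 CPM in control mice 1827, 1872, 1874 and 1934, and at 19.4, 18.4, 19.4 and 18.9 CPM in CSF1 OE mice 1931, 1932, 1936 and 2019. Both genotypes were tight, and the lowest CSF1 OE value lay well above the highest control value. The log2 fold change was 0.45 (SE 0.096, edgeR adjusted p = 0.0688), and at 1.37-fold it stayed under the fold limit.

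Mrpl33 (chromosome 5, 31596935 to 31664384), a small protein of bacterial descent, was at 10.7, 7.40, 9.15 and 8.87 CPM in the control mice and at 13.8, 13.01, 13.6 and 13.8 CPM in the CSF1 OE mice. All CSF1 OE values lay within 1 CPM of each other and above all control values. The log2 fold change was 0.58 (SE 0.14, edgeR adjusted p = 0.0899), and with animal number range as a covariate it was 0.60 (adjusted p = 0.0416), in a fit that called 9.5% of all genes. With each library's trends on length and GC content removed it was 0.37 (adjusted p = 0.244), which is under the fold limit. Of its exon bases, 22.4% also belong to the model Gm43809, so part of its reads may not be its own.

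Mrpl52 (chromosome 14, 54426909 to 54429756) encodes a protein found only in mitochondria and had the highest fold change of the members. It was at 11.1, 7.40, 7.03 and 6.51 CPM in control mice and at 13.1, 14.1, 12.4 and 11.7 CPM in CSF1 OE mice. Control 1827 lay just under the lowest CSF1 OE mouse, and the other 3 control mice lay far below. The log2 fold change was 0.68 (SE 0.19, edgeR adjusted p = 0.135). Without control 1827 it was 0.88 (edgeR adjusted p = 0.0428), which made Mrpl52 the only member called without that mouse, when 1.21% of 13548 genes were called. Without control 1872 it was 0.65 (edgeR adjusted p = 0.316), and without control 1874 it was 0.63 (edgeR adjusted p = 0.318). With each library's trends on length and GC content removed it was 0.52 (edgeR adjusted p = 0.223).

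Mrpl13 and Mrpl45 had the next lowest p of the large subunit. Mrpl13 was at 14.5 to 17.5 CPM in controls and at 17.0 to 25.01 CPM in CSF1 OE mice, with CSF1 OE mouse 2019 inside the control range (log2 fold change 0.43, SE 0.14, edgeR adjusted p = 0.187). The divergent gene Mtbp overlaps 27.0% of the exon bases of Mrpl13 on the opposite strand, and the libraries do not mark strand. Mrpl45 protein helps to hold the ribosome at the inner membrane. Its RNA was at 12.7 to 17.9 CPM in controls and at 18.1 to 18.9 CPM in CSF1 OE mice, without overlap but with control 1827 just below (log2 fold change 0.29, SE 0.12, edgeR adjusted p = 0.280).

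Of the small subunit, Mrps18c had the lowest p. It is one of 3 genes that descend from a single bacterial S18 gene. Mrps18c (chromosome 5, 100798627 to 100804471) was at 9.41, 8.02, 9.30 and 7.75 CPM in controls and at 10.5, 11.7, 12.8 and 12.4 CPM in CSF1 OE mice. The CSF1 OE mice all lay above the controls, mouse 1931 by the least. The log2 fold change was 0.46 (SE 0.13, edgeR adjusted p = 0.151). With animal number range as a covariate it was 0.53 (edgeR adjusted p = 0.0468), in the fit that called 9.5% of all genes. With the trends on length and GC content removed it was 0.29 (adjusted p = 0.339). Of its exon bases, 18.5% are shared with the model Gm43511. Its paralogs differed in level and spread. Mrps18b was at 13.3 to 17.4 CPM in controls and 14.3 to 24.7 CPM in CSF1 OE mice (log2 fold change 0.35, SE 0.17, edgeR adjusted p = 0.345), and 59.1% of its exon bases lie in an antisense model, Gm16279. Mrps18a was at 12.5 to 14.9 CPM in controls and 13.1 to 14.2 CPM in CSF1 OE mice, giving a log2 fold change of 0.027 (SE 0.11). The differences between the 3 paralogs were not tested.

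Mrps28, Mrps10 and Mrps9 were each higher in every CSF1 OE mouse than in any control mouse. Mrps28 was at 5.97 to 6.99 CPM in controls and 7.79 to 9.27 CPM in CSF1 OE mice, giving a log2 fold change of 0.40 (SE 0.14, edgeR adjusted p = 0.209). Mrps10 and Mrps9 are proteins of the head of the subunit. Mrps10 was at 5.88 to 7.52 CPM in controls and 8.01 to 10.8 CPM in CSF1 OE mice, giving a log2 fold change of 0.46 (SE 0.16, edgeR adjusted p = 0.209). Mrps9 was at 14.04 to 16.5 and 16.8 to 22.5 CPM (log2 fold change 0.33, SE 0.12, edgeR adjusted p = 0.219), with mouse 1936 the highest for both genes and the gap between the groups small for Mrps9. Mrps24 had the fifth lowest p of the subunit, at 6.45 to 7.39 CPM in controls and 7.35 to 9.88 CPM in CSF1 OE mice, with CSF1 OE mouse 2019 inside the control range.

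**Figure D3:**
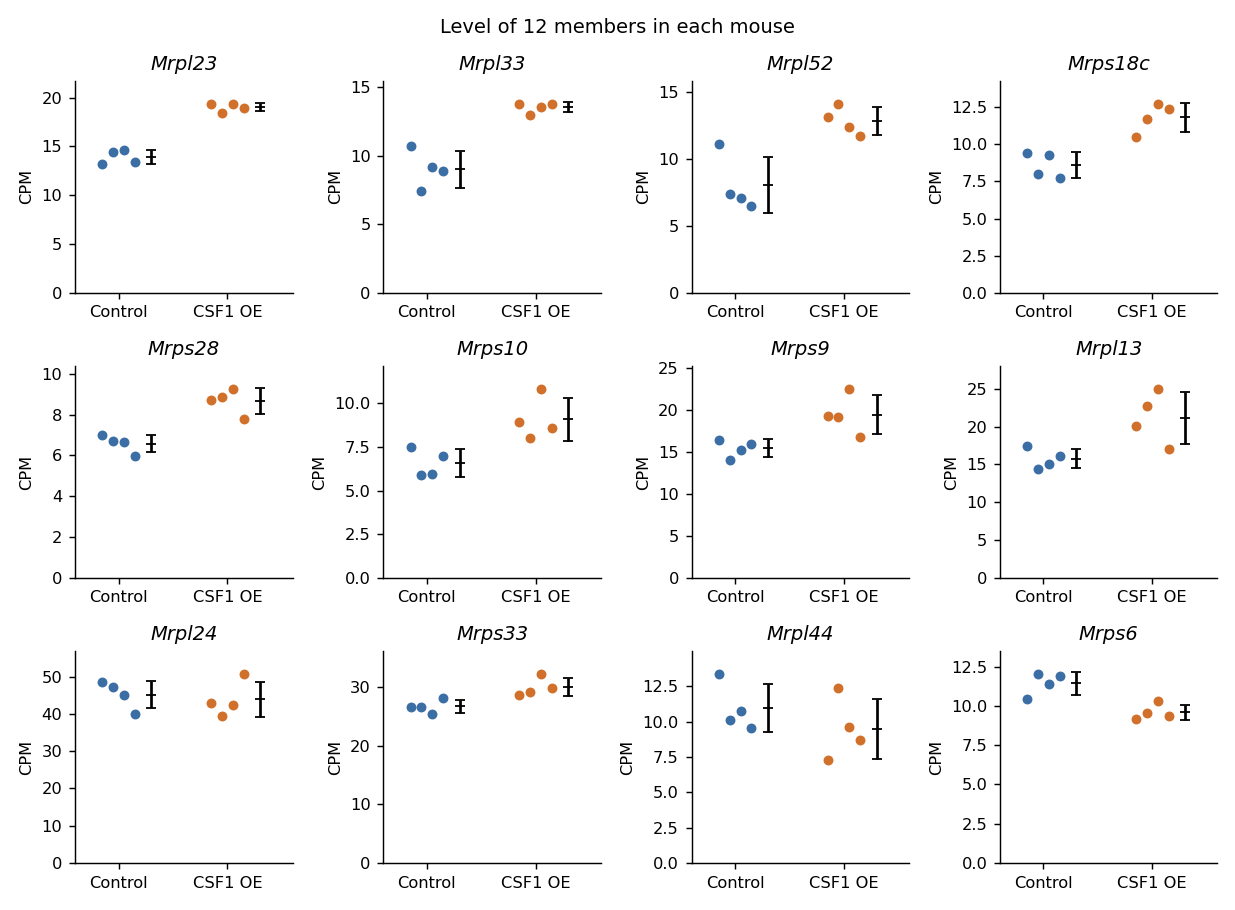
CPM of 12 genes in each mouse, 1 point per mouse with the mean and 1 SD at the right of each group, on axes that start at 0 and differ between panels. Mrpl23, Mrpl33, Mrpl52 and Mrps18c show no overlap between the genotypes, Mrpl24 overlaps fully, and Mrps6 is lower in all 4 CSF1 OE mice.

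The lowest fold changes were smaller in size than the highest. Mrps6 (chromosome 16, 92058270 to 92112227), whose bacterial counterpart binds next to S18, was at 10.4, 12.03, 11.4 and 11.9 CPM in controls and at 9.20, 9.55, 10.3 and 9.38 CPM in CSF1 OE mice. The highest CSF1 OE value (1936) lay just under the lowest control value (1827), and the log2 fold change was -0.25 (SE 0.12, edgeR adjusted p = 0.328). Of the exon bases of Mrps6, 36.1% are shared with Slc5a3 and Gm49711. Mrps31 was at 12.4 to 13.2 CPM in controls and 8.79 to 12.4 CPM in CSF1 OE mice. Its lower mean came mostly from mouse 1931, as the other 3 CSF1 OE mice were at 11.5 to 12.4 CPM (log2 fold change -0.18, SE 0.14, edgeR adjusted p = 0.547, and -0.076 without mouse 1931). Mrps25 had a log2 fold change of -0.16 (SE 0.098), or -0.045 with the trends on length and GC content removed, and 58.2% of its exon bases overlap Nr2c2 on the opposite strand.

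Of the large subunit, Mrpl44, Mrpl53 and Mrpl46, all proteins found only in mitochondria, were lowest, at log2 fold changes of -0.20 (SE 0.19), -0.18 (SE 0.16) and -0.14 (SE 0.18). None was separated between genotypes. Mrpl44 ran from 9.58 to 13.4 CPM in controls and from 7.31 to 12.3 CPM in CSF1 OE mice, with mouse 1931 lowest and mouse 1932 highest. Mrpl46 followed the same order among the CSF1 OE mice, from 7.47 CPM in 1931 to 12.3 CPM in 1932. All exon bases of Mrpl53 overlap other models, so its level is uncertain.

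Per kilobase of transcript, the most abundant members were Mrps33 (56.7 CPM per kilobase over all 8 mice), Mrpl24 (36.3), Mrps21 (27.0) and Mrpl30 (27.0), beside a member median of 11.5 and a median of 9.04 over all genes tested. The lowest was Mrps35 at 2.52 CPM per kilobase. Spearman's rho between mean CPM and log2 fold change was -0.052 over the 76 members, and 0.32 over 13355 genes with a length, values that are across genes and not across replicates. Mrps33 was at 25.3 to 28.2 CPM in controls and 28.7 to 32.2 CPM in CSF1 OE mice, giving a log2 fold change of 0.17 (SE 0.083, edgeR adjusted p = 0.350) that turned to -0.047 once the trends on length and GC content were removed. Mrpl24 was at 40.0 to 48.4 CPM in controls and 39.5 to 50.7 CPM in CSF1 OE mice, giving a log2 fold change of -0.042 (SE 0.10). The gene Rrnad1 overlaps 38.2% of the exon bases of Mrpl24 on the opposite strand. Mrps21 and Mrpl30 were higher, at log2 fold changes of 0.24 (SE 0.13) and 0.35 (SE 0.16), with overlapping values. With the trends on length and GC content removed these fell to 0.024 and 0.20.

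Exons shared with other genes were common among the members. In 25 of 76 the annotation places exon bases of another gene on the same bases, in 21 of them on the opposite strand. RSEM splits reads that fit several genes, which leaves counts that are not whole numbers. Such counts occurred in all 8 libraries for 5 members (Mrpl13, Mrpl19, Mrpl24, Mrpl47 and Mrps25), and all 5 have a gene on the opposite strand over their exons. The 51 members with no shared exon base had a median log2 fold change of 0.16 with 39 of them higher, and the other 25 a median of 0.14 with 18 higher.

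By descent, the 48 members of bacterial families had a median log2 fold change of 0.19, with 38 higher, 24 of 30 in the large and 14 of 18 in the small subunit. The 27 members found only in mitochondria had a median of 0.10, with 18 higher. Fold changes of both kinds covered nearly the same range, from -0.25 to 0.58 and from -0.20 to 0.68. These classes were drawn up after the values had been seen, so the difference is a description without a test.

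Shorter RNAs had higher fold changes among the members, as they had among all genes. The 13 members with transcripts of up to 700 bases had a median log2 fold change of 0.24, beside 0.21 for all 298 genes of that length. The 15 members of over 700 to 1000 bases had a median of 0.18 (all genes 0.13), and the 20 members of over 1000 to 1500 bases a median of 0.16 (all genes 0.057). The medians were 0.075 (15 members, all genes -0.021) up to 3000 bases and 0.15 (13 members, all genes -0.079) beyond that. Mrpl52, Mrpl33 and Mrpl23, with transcripts of 418, 478 and 692 bases, are all in the shortest class. Members are short, with a median of 1225 bases against 2884 bases for all genes, and Spearman's rho between length and fold change was -0.33 over the members and -0.21 over 13355 genes. With the trends on length and GC content removed from each library, 55 of 76 members were higher, when 55.4% of all genes were, and the members' median was 0.11 beside 0.034 for all genes. The large subunit median was then 0.14 and the small subunit median 0.069.

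**Figure D4:**
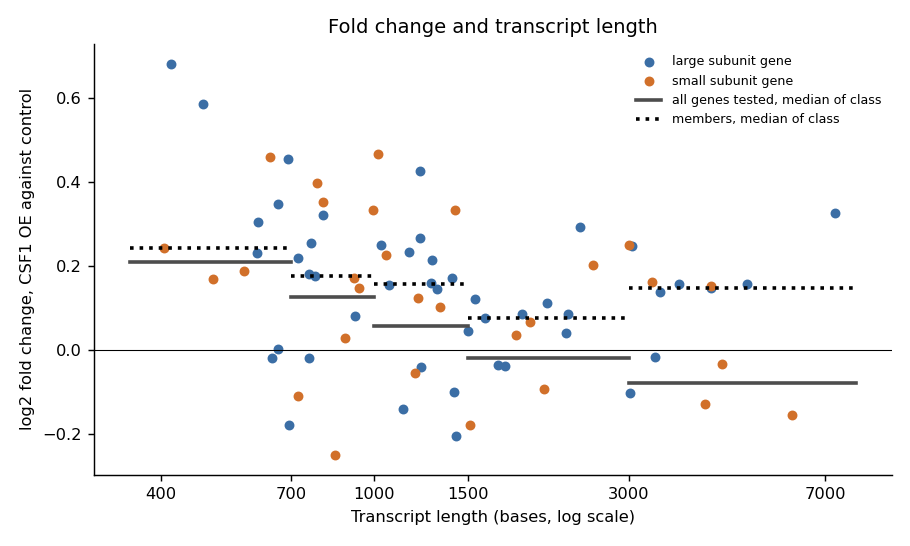
Fitted log2 fold change of each of the 76 genes against the length of its transcript on a log axis, with the median of the members (dotted) and of all genes tested (solid) in 5 classes of length. The medians of all genes fall from 0.21 to -0.079 with length, and the members' medians lie above them in every class.

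The starts of these genes are often close to those of a neighbour. A gene on the opposite strand starts within 1000 bases of 32 of the 76 members (42.1%), beside 1995 of 13343 protein-coding genes tested (14.95%). Both genes were tested in 27 such pairs, and in 12 of the 27 both had the same sign. Mrpl46 and Mrps11 are the only members that share a start region, and their log2 fold changes were -0.14 and 0.22 (SE 0.18 and 0.13). Their outermost GENCODE starts are 412 bases apart, with the gene bounds overlapping there. The RefSeq starts behind the promoter windows below lie elsewhere. Mrps11 was at 10.4 to 13.03 CPM in controls and 11.9 to 14.99 CPM in CSF1 OE mice. Mrpl49 starts 59 bases from Fau, which encodes a protein of the cytoplasmic ribosome, and the pair was at -0.039 and 0.35 (edgeR adjusted p = 0.859 and 0.143). Mrpl49, Mrps11 and Fau were picked for their position after values had been seen.

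The promoters of 67 of the 76 members are in the RefSeq set (GRCm38.p6, 250 bases before to 50 after each start), and 5 are printed: those of the 3 members that passed the call rule in some fit (Mrpl33, Mrpl52 and Mrps18c) and the shared region of Mrpl46 and Mrps11. Letters in capitals are matches, on either strand, to short motifs. The letters searched for the ETS family, which includes the factor GABP, were CCGGAAG. Those for the factor YY1 were ATGGCGGC and those for NRF1, a regulator of nuclear genes for mitochondria, were GCGCATGCG. The E-box was searched as CACGTG, the GC box as GGGCGG and the TATA box as TATAAA, and the CCAAT box by the letters of its name. The windows are chr5:31613701-31614000 on the + strand (Mrpl33), chr14:54426659-54426958 on the + strand (Mrpl52), chr5:100798509-100798808 on the + strand (Mrps18c), chr7:78783040-78783339 on the - strand (Mrpl46) and chr7:78782881-78783180 on the + strand (Mrps11), of which the last 2 share 141 bases.
Mrpl33: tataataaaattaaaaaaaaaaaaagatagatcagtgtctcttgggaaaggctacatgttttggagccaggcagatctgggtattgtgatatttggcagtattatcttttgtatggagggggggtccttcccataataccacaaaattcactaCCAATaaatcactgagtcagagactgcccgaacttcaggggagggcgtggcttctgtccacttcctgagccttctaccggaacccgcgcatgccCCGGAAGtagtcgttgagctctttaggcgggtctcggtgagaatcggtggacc
Mrpl52: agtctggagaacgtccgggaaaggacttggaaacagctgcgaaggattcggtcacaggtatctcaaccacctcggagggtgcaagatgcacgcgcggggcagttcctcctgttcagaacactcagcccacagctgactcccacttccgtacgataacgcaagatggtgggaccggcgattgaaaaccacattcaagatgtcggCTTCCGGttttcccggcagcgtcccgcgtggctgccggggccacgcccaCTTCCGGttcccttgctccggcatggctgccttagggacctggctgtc
Mrps18c: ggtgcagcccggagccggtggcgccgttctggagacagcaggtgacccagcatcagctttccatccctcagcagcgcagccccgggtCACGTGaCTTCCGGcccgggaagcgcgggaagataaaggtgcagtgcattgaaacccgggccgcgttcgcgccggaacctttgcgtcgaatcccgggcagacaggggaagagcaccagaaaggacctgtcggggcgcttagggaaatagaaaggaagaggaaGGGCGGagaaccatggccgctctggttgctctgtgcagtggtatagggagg
Mrpl46: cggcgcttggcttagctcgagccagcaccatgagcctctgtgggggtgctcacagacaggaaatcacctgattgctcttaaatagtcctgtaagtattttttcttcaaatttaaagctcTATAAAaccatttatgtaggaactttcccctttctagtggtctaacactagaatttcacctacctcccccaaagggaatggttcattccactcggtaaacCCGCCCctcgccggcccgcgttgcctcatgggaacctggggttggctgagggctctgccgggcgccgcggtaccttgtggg
Mrps11: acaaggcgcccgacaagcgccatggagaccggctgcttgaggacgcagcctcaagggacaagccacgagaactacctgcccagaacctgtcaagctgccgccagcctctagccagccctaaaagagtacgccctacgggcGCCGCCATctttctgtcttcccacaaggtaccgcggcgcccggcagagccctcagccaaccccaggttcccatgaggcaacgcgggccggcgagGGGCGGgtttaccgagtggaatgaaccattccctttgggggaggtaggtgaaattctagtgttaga

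Counted from the first base of each window, the ETS letters stand at 248 in Mrpl33, at 204 and 253 in Mrpl52 and at 95 in Mrps18c. The Mrpl46 and Mrps11 windows hold none, and no printed match overlaps another. The GC box at 220 in the Mrpl46 window and at 235 in the Mrps11 window is the same stretch read from either side. The shares that follow are of genes, and a gene counted if any of its windows held the letters. The set holds 32851 windows of 27025 genes, among them 10105 of the 13407 genes tested. The ETS letters were in 35.8% of the 67 members, beside 18.8% of the 10105 tested genes and 9.93% of all 27025 genes. The YY1 letters were in 17.9% (5.37% of tested and 2.61% of all genes) and the NRF1 letters in 10.4% (4.02% and 1.95%). The other motifs were no more frequent than in tested genes, at 40.3% against 42.9% for the CCAAT box (all genes 41.1%), 49.3% against 68.3% for the GC box (38.2%), 7.46% against 11.5% for the E-box (8.09%), and 7.46% against 8.91% for the TATA box (15.7%). Members with and without the ETS letters had median log2 fold changes of 0.17 and 0.12. Those with and without the YY1 letters had medians of 0.093 and 0.15, and those with and without the NRF1 letters 0.075 and 0.15. A match says only that these letters are in the window.

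Beside the members, the other parts of mitochondrial translation were listed from background knowledge. Of 7 further mitochondrial ribosomal proteins, 0 were called and 5 were higher, and their median log2 fold change was 0.11. Chchd1, of the small subunit, was at 9.22 to 12.95 CPM in controls and 14.6 to 15.8 CPM in CSF1 OE mice (log2 fold change 0.48, SE 0.14, edgeR adjusted p = 0.143). Of 15 translation factors and messenger RNA binding proteins, 0 were called and 6 were higher, with a median of -0.095, and the lowest p was that of Lrpprc, which stabilises mitochondrial messenger RNA (0.32, SE 0.094, edgeR adjusted p = 0.156). Of 24 assembly factors, 0 were called and 11 were higher, with a median of -0.040 and the lowest p for the helicase Dhx30 (-0.18, SE 0.078, edgeR adjusted p = 0.303).

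Among the 21 aminoacyl-tRNA synthetases and related enzymes that charge mitochondrial tRNAs, 0 were called and 12 were higher, with a median of 0.014. Iars2, the isoleucine enzyme, was at 62.9 to 69.5 CPM in controls and 77.2 to 82.0 CPM in CSF1 OE mice (log2 fold change 0.28, SE 0.065, edgeR adjusted p = 0.0899). Among 17 regulators of mitochondrial DNA expression and biogenesis, 0 were called and 10 were higher, with a median of 0.016 and the lowest p for Gabpb2, a partner of the ETS factor GABP (0.21, SE 0.079, edgeR adjusted p = 0.238). The count files used here hold 0 of 15 genes of mitochondrial DNA that were looked for, so the products of this ribosome's own templates were not analysed here.

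For comparison, 81 cytoplasmic ribosomal protein genes had a median log2 fold change of 0.49, with 81 higher and 19 called, and Rpl39 had the lowest p (edgeR adjusted p = 0.0322). The 77 nuclear genes of the respiratory chain had a median of 0.23, with 76 higher and 0 called, and the lowest p was that of Atp5e, a subunit of ATP synthase (edgeR adjusted p = 0.0558). Both medians were above those of the large (0.15) and the small (0.15) subunit. The lists also differed in level, with a median of 375 CPM for the cytoplasmic ribosomal and 39.7 CPM for the respiratory chain genes. The members' median was 15.1 CPM, so the numbers called are not directly comparable. Over all genes 0.44% were called. No test was made of these differences between lists, or of the part of level or transcript length in them.

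**Figure D5:**
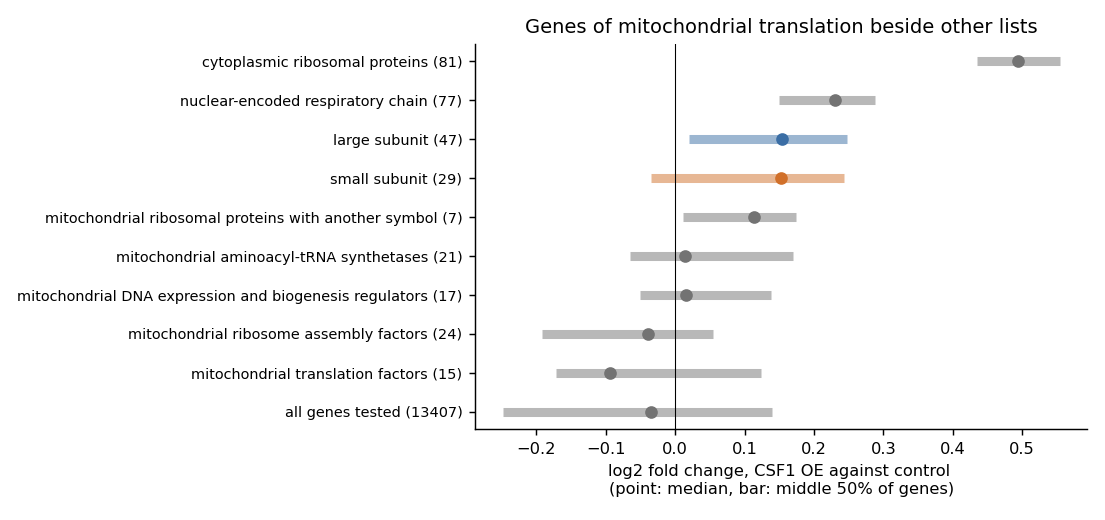
Median (point) and middle 50% (bar) of the fitted log2 fold changes of the genes of each list, with the number tested in brackets. The cytoplasmic ribosomal proteins lie highest at 0.49, both mitochondrial subunits lie at 0.15, and the assembly and translation factors lie at -0.040 and -0.095, beside -0.034 for all genes.

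The composition of the libraries moved with genotype in some lists. All 15 cell cycle genes were higher in CSF1 OE cells (median log2 fold change 0.60, 1 called), and their summed level was 701 to 1244 CPM in controls and 1299 to 1681 CPM in CSF1 OE mice, with 0 of the 15 at 0. The 10 microglial markers summed to 21615 to 38216 CPM in controls and 28058 to 39023 CPM in CSF1 OE mice, with 0 of them at 0. All 8 markers of perivascular and border macrophages were lower (median -0.47, sums of 1581 to 2505 CPM and 1266 to 1884 CPM, none at 0). Of the endothelial and mural markers 9 of 10 were lower (sums of 643 to 1086 CPM and 372 to 821 CPM), and of the neuronal markers 7 of 8 (91.3 to 359 CPM and 45.5 to 214 CPM). All 5 red blood cell genes were lower too (251 to 936 CPM and 38.5 to 434 CPM). Of the monocyte and neutrophil markers 7 of 10 were higher, with overlapping sums (62.2 to 133 CPM and 39.2 to 263 CPM). Of the oligodendrocyte lineage markers 8 of 10 were lower (sums of 2878 to 6029 CPM and 1577 to 4970 CPM). Of the astrocyte markers 5 of 8 were lower (378 to 697 CPM and 319 to 725 CPM). Of the immediate early and stress genes 9 of 12 were lower (11771 to 17500 CPM and 8298 to 21094 CPM). The sums of these 3 lists overlapped between genotypes. Of the T, NK and B cell markers 2 were tested, and 0 were higher. None of these lists but the cell cycle list had a called gene, and their part in the members' values was not tested.

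Animal numbers ran in ranges that overlapped with genotype, as 1931 to 1936 held 1 control and 3 CSF1 OE mice and the other numbers 3 control mice and 1 CSF1 OE mouse. What these ranges stand for is not given in the sources used here. Within 1931 to 1936 the members' median difference in log2 CPM was 0.20, with 60 of 76 higher (49.9% of all genes), and within the other numbers it was 0.076, with 49 higher (48.9% of all genes). The medians over all genes were -0.00054 and -0.0090. Mrpl33 differed by 0.59 and 0.61 on this scale within the ranges, Mrpl23 by 0.51 and 0.43, Mrps18c by 0.57 and 0.47, and Mrps6 by -0.29 and -0.26. Mrpl52 differed by 1.005 within 1931 to 1936 and by 0.48 within the other numbers, which hold control 1827. Each of these differences rests on a single mouse in one of the genotypes.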

How the data were processed

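RNA of CD11b+ brain cells was measured in 4 control and 4 CSF1 OE mice, 1 TruSeq library each, and the groups were taken from the genotype in the labels. Per the labels and the paper's methods, the authors aligned the reads with Bowtie 1.0.0 (build mm10) and deposited expected counts per gene from RSEM 1.2.7, without normalization. The authors also deposited a normalized signal, counts divided by a size factor per mouse, which served only in an alternative. The strand setting is not given in the sources used here, and replicates were not pooled.

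Expected counts were rounded to whole numbers. The tests ran in edgeR 4.0.16 under R 4.3.3 (TMM factors, filterByExpr, glmQLFit, glmQLFTest), with Benjamini-Hochberg adjustment over all genes. The study's own tool, EBSeq, was not run, but its fold limits were kept. CPM were computed on the TMM-scaled library size, log2 CPM used a prior count of 2, and values are mean ± SD over mice. A count of 0 allows up to 3 counts, or 0.177 to 0.266 CPM, for counting error only. The steps were tested on simulated data. Alternatives used DESeq2 1.42.0, limma 3.58.1, other factors and filters, a term for animal numbers, removal of trends on length and GC content, and each mouse left out. Coordinates, lengths (a transcript of median length) and exon overlaps came from GENCODE annotation of GRCm38, in which 94 of the 20308 symbols had no match, and promoters from RefSeq.

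The members and lists were chosen with earlier results of these data known. The members named are, in each subunit, the 5 with the lowest p, the 3 with the lowest fold change and the 2 highest per kilobase, with the Mrps18 paralogs and Mrpl52 (held by the study's table), and in each pathway list the gene with the lowest p. Others are named as exceptions, after their values had been seen.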

Additional observations from a re-analysis of the deposited data

Results flagged for a closer look

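A mouse stood apart from the other 3 of its genotype in 5 of 52 groups of values, where chance flags about 1 in 20. The groups are not independent, as the sum of all members holds both subunit sums. The 5 flags therefore cannot be weighed against that rate. The measure is the gap of the farthest mouse to its nearest neighbour over the whole range of the group, with a limit of 0.829 for 4 mice. Control 1827 was far above the other control mice in the sum of all members (1259 against 1117 to 1135 CPM, measure 0.871), in the large subunit sum (818 against 719 to 735 CPM, 0.837) and in the small subunit sum (442 against 398 to 400.4 CPM, 0.948). CSF1 OE mouse 2019 was below the other CSF1 OE mice in the large subunit sum (798 against 833 to 839 CPM, 0.852). For single genes, control 1874 stood above the other controls in Mrps18a (14.9 against 12.5 to 12.8 CPM, 0.869). Without control 1827, 18 members were higher at an unadjusted p under 0.05, in place of 10, when the share of all genes was 11.7% in place of 10.1%, and the members' median log2 fold change was 0.20.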

How the results depend on the processing

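Of 466 values recomputed under an alternative, 451 were classed as kept, by a rule that differed between kinds of value. Named genes had to keep their sign and their call, so their adjusted p could still move. Medians and sums had to keep their sign and move by less than the SD between the control mice, control 1827 included. On the log2 scale that SD was 0.085 for all members, 0.097 for the large subunit, 0.063 for the small subunit and 0.082 for the sum. This is wide beside medians of 0.15, so that 0.20 over the members without control 1827 was classed as kept. Counts of members could change within a fixed ratio, so that 7 or 15 members at an unadjusted p under 0.05 in place of 10 were classed as kept. The number of members called moved from 0 to 2 with animal number range as a covariate (Mrpl33 and Mrps18c), which called 1274 of all genes in place of 59, to 2 with DESeq2 (Mrpl33 and Mrpl52), which called 416, and to 1 without control 1827 (Mrpl52), and the causes were not tested. Leaving out each mouse gave 0 to 1 members called, a median log2 fold change of 0.13 to 0.20 over the members, 0.12 to 0.21 for the large and 0.13 to 0.17 for the small subunit, and a log2 ratio of the sums of 0.12 to 0.17. It gave 6 (without control 1872, beside 7.25% of all genes) to 18 (without control 1827, beside 11.7% of all genes) members higher at an unadjusted p under 0.05. With the trends on length and GC content removed, the small subunit median fell from 0.15 to 0.069. The large subunit median was 0.14 in that setting and the median over all genes 0.034. The sign of Mrpl24 turned with animal number range as a covariate (0.084) and without CSF1 OE mouse 1932 (0.0072). With each mouse left out, the log2 fold change of Mrpl24 was between -0.12 and 0.0072. The signs of Mrps33 (-0.047) and Mrps18a (-0.028) turned with the trends removed. Subunits drawn by where the protein sits gave medians of 0.15 and 0.15, an alternative added after the data had been seen. Mrpl23 had an adjusted p between 0.00107 and 0.210 over 16 alternatives, Mrpl33 between 0.00360 and 0.250, Mrpl52 between 0.0179 and 0.318, and Mrps18c between 0.0275 and 0.348. No paired analysis was possible because the labels give the genotypes no shared replicate numbers. Nothing says whether the mice came from separate litters, so p-values measure only the spread between these mice. Counts of 44 (Mrpl55) to 721 (Mrpl24) per library limit single members, and the median standard error of 0.13 left small differences undetected.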

Other observations

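Mrpl34 had the widest relative spread among control mice, at 7.86 CPM in control 1827 and 3.94 to 4.55 CPM in the other 3, and 5.49 to 7.49 CPM in CSF1 OE mice. Mrpl12, the stalk protein of the large subunit, was at 26.3 CPM in control 1827, 17.5 to 20.3 CPM in the other control mice and 22.2 to 23.4 CPM in CSF1 OE mice. Mrps36 was at 9.88 CPM in control 1827, 7.03 to 7.88 CPM in the other control mice and 8.14 to 10.2 CPM in CSF1 OE mice. Of the 76 members, 62 were above the control mean in control 1827, against 23 to 31 in the other control mice and 49 to 59 in the CSF1 OE mice. These genes were picked after their values had been seen.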
